A study of Mus musculus with 6 samples.

Results

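The genes described here are 10 genes of exosome biogenesis and exosome surface, in 6 mRNA libraries of C2C12 cells. They are the tetraspanins Cd9, Cd63, Cd81, Cd82 and Cd151, and the genes Pdcd6ip (ALIX), Tsg101, Sdcbp (syntenin), Flot1 and Rab27a. They were taken by symbol from the FPKM table, where all 10 of the 10 were found among 20950 entries, and 9 of them averaged 1 FPKM or more over the 6 libraries. C2C12 cells are mouse myoblasts of an established line, which stop dividing and form myotubes once serum is withdrawn. Growing cells were kept in DMEM with 10% FBS (1 library). Semi-confluent cells were moved to 2% HS (horse serum, 1 library), 2% HS + exosome (1 library), 0.2% FBS (1 library) or 0.2% FBS + exosome (2 libraries, called replicates 1 and 2). The exosomes came from FBS and were collected with commercial precipitation kits, in the amount that 10% FBS holds. No source used here says whether the 2 replicates came from separate cultures, so their spread may be technical. The paper mentions 2 preparations of FBS exosomes, and whether the replicates shared one is not given.

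Exosomes are small vesicles that form when the membrane of a late endosome buds inward, and that leave the cell when this endosome fuses with the plasma membrane. Tetraspanins are membrane proteins that gather partners such as integrins into patches, and CD9, CD63 and CD81 are common exosome markers. TSG101 belongs to the ESCRT machinery that sorts cargo and cuts the inner vesicles off, ALIX links that machinery to syntenin, and syntenin binds the tails of syndecans. Flotillin-1 is a raft protein often found in exosomes, and RAB27A docks the filled endosome at the plasma membrane. In muscle, CD9 and CD81 are known for a part in myoblast fusion. The question asked here of the libraries is how the transcripts of the cells' own exosome machinery stood when serum was reduced and when exosomes from FBS were added.

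FPKM divides the reads of a gene by transcript length and by library depth, and the sum over all entries lay between 461439 and 515215 per library. The table holds no read counts. The depth was estimated from the spacing of low FPKM values at 33200000 to 39400000 reads per library, so it is not a count and no interval is given for a single value. A change is given as the difference of log2(FPKM + 1), which understates the change of low genes. The median change was 0.14 over the 10731 genes that averaged 1 FPKM or more (the genes tested), for exosomes in 0.2% FBS, and 0.01 after each library was scaled to the same 75th percentile. The titles number the 2% HS libraries 1, the 0.2% FBS library 2 and the exosome replicates 2 and 3. Should a number stand for a batch, batches 1 and 2 would go with the medium, and their effects cannot be told apart. Number 3 is exosome replicate 2 alone, with no control of that number. Its changes, and the spread between the exosome replicates, would then carry the batch as well. Myod1, a defining gene of myoblasts, was at 83.7 to 110.5 FPKM in the 6 libraries. The 8 muscle markers, Myod1 included, summed to 4743 FPKM in 10% FBS, 9380 in 2% HS, 8586 in 2% HS + exosome, 10106 in 0.2% FBS, and 4724 and 3588 in the exosome replicates. The sum of these markers thus differed with serum and with exosomes in 0.2% FBS, in libraries that are mostly single. No test was made on the sums, and their part in the changes below was not tested. The calls for single markers are given further on.

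In 0.2% FBS, the members differed among themselves when exosomes were present. Flot1 and Cd9 were higher past the limma threshold, by 0.94 and 0.80 on the log2 scale. Cd9 lost the call after scaling (adjusted p = 0.0654), and both lost it when the filter on low FPKM was left out. Sdcbp, Cd63 and Cd82 were higher in both exosome libraries without passing it. The ESCRT genes Tsg101 and Pdcd6ip lay within 0.10 of the control with FPKM as deposited, and Cd81 and Cd151 had changes of -0.19 and -0.16. After scaling, these 4 had changes of -0.18, -0.11, -0.34 and -0.31. In 2% HS, where each arm has 1 library, Flot1 and Cd9 had changes of -0.23 and -0.56. In bulk RNA, fewer cells with a transcript and less of it per cell cannot be told apart.

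The upstream sequences of 3 tetraspanin genes are shown because these genes differ most among the tetraspanins in how they stood across the media. Cd81 and Cd151 had higher values in both low-serum media than in 10% FBS, and Cd9 had lower ones, none of them past the test given further on. Records of upstream sequence from RefSeq (GRCm38.p6) matched 8 of the 10 members, and not Sdcbp and Flot1. Each sequence is written 5′ to 3′ on the strand of its gene, from 250 bases before the RefSeq start up to that start or to the first base of the GENCODE gene. Capitals mark E-boxes (CANNTG, the motif bound by the MyoD family) and GC boxes (GGGCGG), both searched on both strands. The stretch of Cd9 is chr6:125494792-125495010 on the minus strand, that of Cd81 chr7:143052500-143052738 and that of Cd151 chr7:141467112-141467361, both on the plus strand.
Cd9: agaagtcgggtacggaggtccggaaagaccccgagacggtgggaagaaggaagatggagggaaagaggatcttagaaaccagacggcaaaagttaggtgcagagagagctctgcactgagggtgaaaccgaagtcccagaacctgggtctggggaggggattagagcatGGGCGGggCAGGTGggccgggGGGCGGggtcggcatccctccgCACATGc
Cd81: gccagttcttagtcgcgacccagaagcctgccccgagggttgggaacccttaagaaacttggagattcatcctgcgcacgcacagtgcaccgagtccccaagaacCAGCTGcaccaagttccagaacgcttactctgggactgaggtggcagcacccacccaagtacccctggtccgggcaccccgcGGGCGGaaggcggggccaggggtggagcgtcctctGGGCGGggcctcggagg
Cd151: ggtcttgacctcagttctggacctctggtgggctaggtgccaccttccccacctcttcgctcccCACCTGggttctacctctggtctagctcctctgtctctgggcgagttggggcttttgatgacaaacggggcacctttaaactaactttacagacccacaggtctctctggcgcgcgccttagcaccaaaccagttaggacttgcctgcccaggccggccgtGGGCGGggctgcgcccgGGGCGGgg
The printed stretch of Cd9 holds 2 E-boxes, and those of Cd81 and Cd151 hold 1 each. Each printed stretch holds 2 GC boxes. In the whole window of 250 bases Cd9 has 3 E-boxes and Cd81 has 3 GC boxes. Of 32851 such records in the mouse genome, 66.2% hold an E-box and 32.7% a GC box within the same 250 bases. The motifs are therefore common ones, and a match is a description of the letters only. The form CACGTG, found in 6.02% of all records, occurs in none of the 3 windows.

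By mean FPKM over the 6 libraries the 5 tetraspanins were the most abundant members, although Sdcbp exceeded Cd151 in 10% FBS and in both exosome replicates of 0.2% FBS. Cd63, a tetraspanin of late endosomes and lysosomes, reached 1650 FPKM in 10% FBS, 2089 in 2% HS, 2182 in 2% HS + exosome, 1616 in 0.2% FBS, and 2212 and 2266 in the exosome replicates. It ranked between 11 and 37 among all entries of a library. Cd63 made up 68.1% to 72.9% of the summed FPKM of the 5 tetraspanins. The levels of Cd63 form 2 tiers: 10% FBS and 0.2% FBS are low, and the other 4 libraries are high. With exosomes in 0.2% FBS its change was 0.45 in replicate 1 and 0.49 in replicate 2, and 0.06 in 2% HS. The limma estimate was 0.47 (SE 0.52, adjusted p = 0.583), so the difference was not larger than the spread that the fit assigns to genes of this level. That spread depends on the mean-variance trend. The adjusted p was 0.110 without the trend, 0.671 after scaling and 0.712 without the filter on low FPKM, and none of these passed. Of 75-base stretches of the Cd63 transcripts, 6.47% are also in the pseudogene Cd63-ps, whose reads could not be told apart there.

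**Figure D1:**
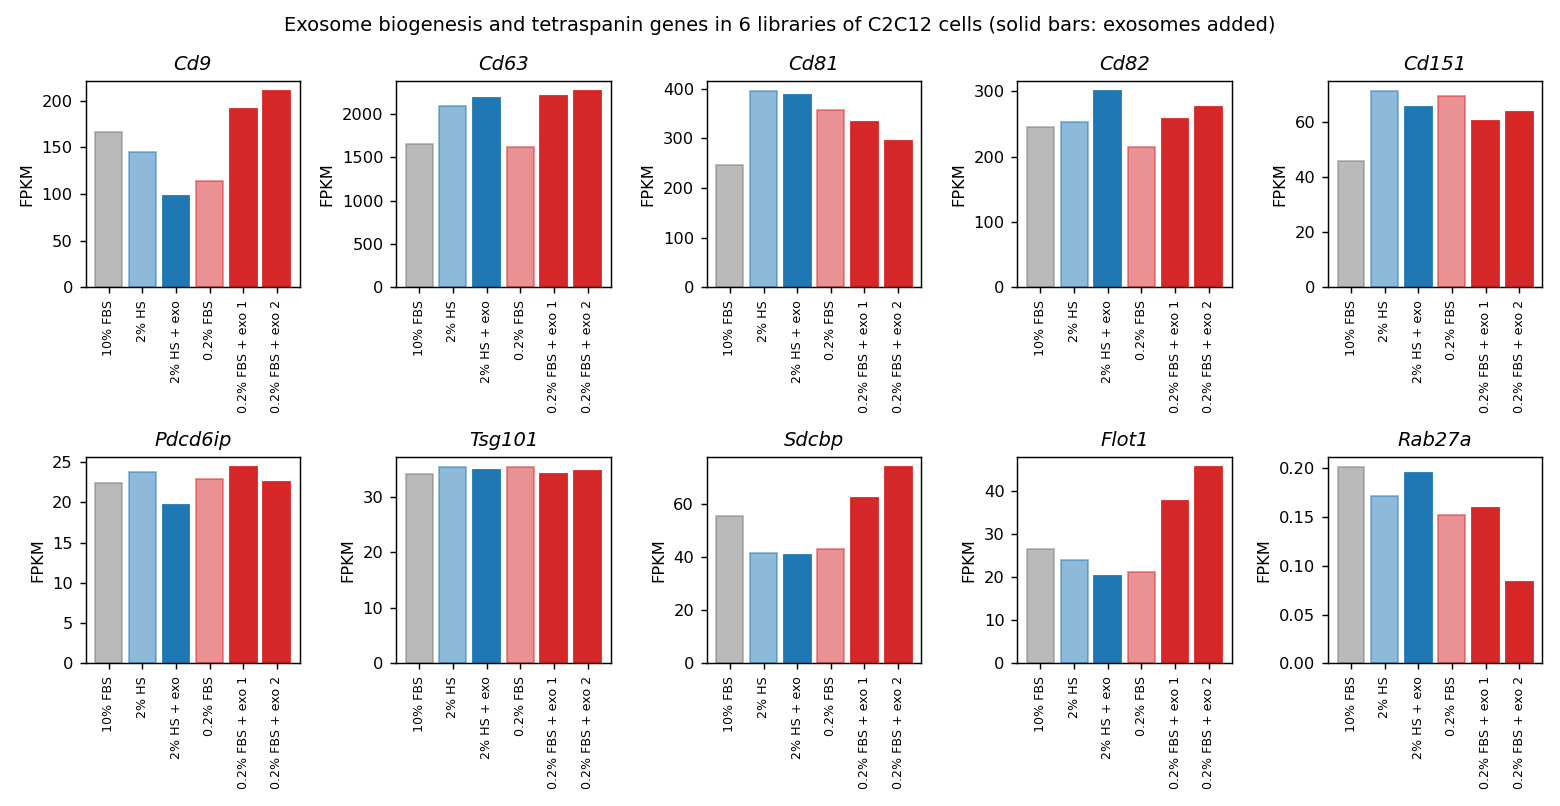
FPKM of each of the 10 members in the 6 libraries (1 bar per library, each panel with its own axis from 0; solid bars are libraries with added exosomes, pale bars without). Cd9, Cd63, Sdcbp and Flot1 have their highest bars in both 0.2% FBS + exosome libraries, while Tsg101 lies between 34.3 and 35.5 FPKM in all 6.

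Cd9, a fusion-related tetraspanin and a standard exosome marker, was at 166 FPKM in 10% FBS, 145 in 2% HS, 98.2 in 2% HS + exosome, 114 in 0.2% FBS, and 191 and 210 in the exosome replicates. Both exosome libraries in 0.2% FBS exceed all other libraries, while the exosome library in 2% HS is the lowest of the 6. The exosome libraries in 0.2% FBS were at 1.67 and 1.84 times their control, and the exosome library in 2% HS was at 0.676 times its control. The limma estimate in 0.2% FBS was 0.80 (SE 0.22, adjusted p = 0.0465). After scaling it was 0.66 with an adjusted p of 0.0654, so the call rests on the scaling of the libraries. Without the filter on low FPKM the adjusted p was 0.243. The exosome effect in 0.2% FBS exceeded that in 2% HS by 1.36 (SE 0.33), and this difference did not pass the threshold (adjusted p = 0.0831). The gene lies on chr6:125460266-125494791 (minus strand, GENCODE vM21 on mm10) and overlaps the opposite-strand transcript Gm26728 in 218 exon bases.

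Cd81, which acts beside CD9 in fusion, was at 247 FPKM in 10% FBS, 395 in 2% HS, 388 in 2% HS + exosome, 357 in 0.2% FBS, and 332 and 294 in the exosome replicates. Growing cells had the lowest level of the 6, and the exosome replicates in 0.2% FBS lay between growing and differentiating cells. Cd81 was 1.60 times as high in 2% HS and 1.45 times as high in 0.2% FBS as in 10% FBS. Its changes with exosomes were -0.10 and -0.28 in 0.2% FBS and -0.03 in 2% HS. The limma estimate for exosomes in 0.2% FBS was -0.19 (SE 0.27, adjusted p = 0.682), with a 95% interval from -0.81 to 0.44, so neither a fall nor a moderate rise can be told from no change. The ratio of Cd9 to Cd81 FPKM was 0.672 in 10% FBS, 0.367 in 2% HS, 0.253 in 2% HS + exosome, 0.321 in 0.2% FBS, and 0.574 and 0.714 in the exosome replicates. In 0.2% FBS + exosome this ratio was nearer to that of growing cells than in 0.2% FBS alone, and in 2% HS + exosome it was farther from it than in 2% HS.

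Cd151, a tetraspanin that binds laminin-binding integrins, was the least abundant of the 5 tetraspanins, at 45.9 FPKM in 10% FBS, 71.2 in 2% HS, 65.5 in 2% HS + exosome, 69.4 in 0.2% FBS, and 60.3 and 63.6 in the exosome replicates. As for Cd81, growing cells were lowest and 2% HS highest. Cd82, a tetraspanin known as a suppressor of metastasis, was at 245 FPKM in 10% FBS, 253 in 2% HS, 301 in 2% HS + exosome, 215 in 0.2% FBS, and 258 and 276 in the exosome replicates. Cd82 was higher with exosomes in all 3 exosome libraries, by 0.26, 0.35 and 0.25, and it is, beside Cd63, the only member of which this holds with FPKM as deposited; after scaling it also holds for Sdcbp. The limma estimates in 0.2% FBS were 0.31 for Cd82 (adjusted p = 0.441) and -0.16 for Cd151 (adjusted p = 0.58), and neither passed.

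Flot1 had the widest range of the members, 1.13 on the log2 scale, and was the only member with a change beyond 1 in any library. It was at 26.6 FPKM in 10% FBS, 24.1 in 2% HS, 20.4 in 2% HS + exosome, 21.2 in 0.2% FBS, and 37.7 and 45.8 in the exosome replicates. The exosome replicates in 0.2% FBS were both above all other libraries, at 1.78 and 2.16 times their control. The limma estimate was 0.94 (SE 0.18, adjusted p = 0.0186), and after scaling 0.80 (adjusted p = 0.0287). Without the filter on low FPKM the adjusted p was 0.246. In 2% HS the change was -0.23, and the difference between the media, 1.17 (SE 0.27), did not pass (adjusted p = 0.0782). Flot1 lies on chr17:35823230-35832791 (plus strand), and none of its 75-base stretches is in another annotated transcript. Its partner gene Flot2, with which flotillin-1 forms complexes, had 26.9 FPKM in 0.2% FBS against 31.0 and 35.8 in the exosome replicates, a change of 0.30 (adjusted p = 0.265).

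Sdcbp codes for syntenin, the adaptor between syndecans and ALIX. It was at 55.3 FPKM in 10% FBS, 41.7 in 2% HS, 40.9 in 2% HS + exosome, 43.2 in 0.2% FBS, and 62.3 and 74.1 in the exosome replicates. Its levels fall into a low set of 3 libraries at 40.9 to 43.2 FPKM, which holds both low-serum media without exosomes and 2% HS + exosome, and a high set with growing cells and both exosome replicates in 0.2% FBS. The limma estimate for exosomes in 0.2% FBS was 0.64 (SE 0.19) and did not pass the threshold (adjusted p = 0.0569). The adjusted p was 0.0532 with a pseudocount of 0.1, 0.0720 without the trend, 0.0928 after scaling and 0.272 without the filter on low FPKM. In 2% HS the change was -0.03, and the difference between the media of 0.67 did not pass (adjusted p = 0.248). Sdcbp (chr4:6365650-6408423, plus strand) overlaps the opposite-strand gene Nsmaf in 78 of 6904 exon bases, and the strand setting of the FPKM estimates is not given in the sources used here.

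The ESCRT-linked members lay near one level with FPKM as deposited. Tsg101, the ESCRT-I subunit that recognises ubiquitinated cargo, was at 34.3 FPKM in 10% FBS, 35.5 in 2% HS, 34.9 in 2% HS + exosome, 35.5 in 0.2% FBS, and 34.3 and 34.8 in the exosome replicates. Its range over the 6 libraries was 0.05 on the log2 scale as deposited, but after scaling its changes with exosomes in 0.2% FBS were -0.16 and -0.20. The limma interval for exosomes in 0.2% FBS ran from -0.41 to 0.33, so changes of that size are not excluded by the fit. Tsg101 shares 13.1% of its 75-base stretches with the pseudogene Tsg101-ps. Pdcd6ip was at 22.4 FPKM in 10% FBS, 23.7 in 2% HS, 19.7 in 2% HS + exosome, 22.9 in 0.2% FBS, and 24.4 and 22.6 in the exosome replicates. The 2% HS + exosome library is the low one, at 0.830 times its control. In 0.2% FBS the limma change was 0.04 (adjusted p = 0.908), and it turned to -0.11 after scaling.

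Rab27a was near the floor in every library. It was listed at 0.202 FPKM in 10% FBS, 0.172 in 2% HS, 0.196 in 2% HS + exosome, 0.152 in 0.2% FBS, and 0.159 and 0.083 in the exosome replicates. These values correspond to an estimated 8 to 24 reads per library, and the gene did not enter the limma fits, so no difference between the conditions was tested for it. In addition, 2.24% of its 75-base stretches are shared, in part with the pseudogene Gm27186.

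**Figure D2:**
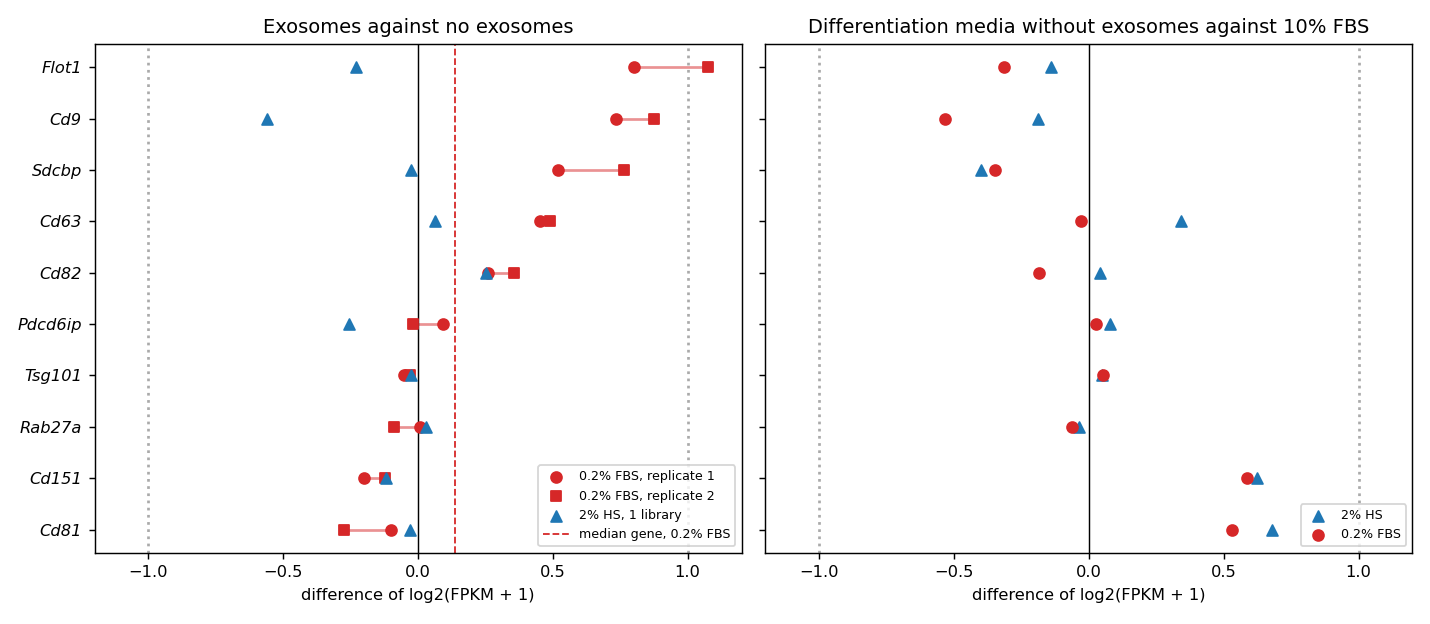
Differences of log2(FPKM + 1) for each member (left: exosomes against no exosomes, with red points for the 2 libraries in 0.2% FBS joined by a line and blue triangles for 2% HS; right: 2% HS and 0.2% FBS without exosomes against 10% FBS; dotted lines at 1 and -1, dashed line at the median gene in 0.2% FBS, 0.14). Flot1, Cd9 and Sdcbp lie to the right in 0.2% FBS and at or below 0 in 2% HS, and Cd81 and Cd151 lie highest in both low-serum media.

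Counted over the list, 0 of the 10 members were beyond the study's threshold of 1 or -1 in both exosome libraries of 0.2% FBS, beside 1.29% of all 20950 entries. In 2% HS 0 of 10 passed, beside 0.344% of all entries. In 2% HS against 10% FBS 0 of 10 passed, beside 1.21%, and in 0.2% FBS against 10% FBS 0 of 10, beside 1.3%. Counts of 0 in a list of 10 are thus no result about the members. In replicate 2 alone, Flot1 was past the threshold, at 1.08, beside 628 of all 20950 entries.

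limma with a mean-variance trend and Benjamini-Hochberg adjustment called 2 of the 9 tested members for exosomes in 0.2% FBS, beside 12.5% of the 10731 genes tested. In a list of 9 this share is near the background and is no result about the members. Over all genes tested, 880 were called higher and 464 lower, and after scaling 480 higher and 684 lower, so the balance of directions rests on the scaling. The fit has 1 residual degree of freedom, from the exosome replicates, and assumes that the single libraries vary as these do. The difference of the exosome effect between media was called for 0 of 9 members, beside 1.16% of all genes, with 2091 genes at an unadjusted p under 0.05 and with Flot1, Cd9 and Sdcbp as the 3 members among them. For an exosome effect common to both media, limma called 0 of 9 members, beside 0% of all genes, where 709 genes had an unadjusted p under 0.05 but no member did.

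The median change of the 10 members was 0.17 with exosomes in 0.2% FBS, beside 0.14 for all genes tested, and 0.05 beside 0.01 after scaling. Without Rab27a, which was too low to be tested, the median of the other 9 was 0.31, and 0.16 after scaling. Of the 10, 5 were higher in both exosome libraries, 3 were lower in both and 2 were higher in one and lower in the other, beside 55.2% of all genes tested higher in both and 27.5% lower in both. After scaling, 5 were higher and 5 lower, beside 41.8% and 40.8%. In 2% HS the median was -0.03, beside -0.04 for all genes, with 3 members higher and 7 lower, or 6 higher and 4 lower after scaling. The list median in 0.2% FBS thus depends on Rab27a and on the scaling, and the changes of Flot1, Cd9 and Sdcbp stand beside others near 0. Among the genes tested, the change in 0.2% FBS stood at the 97.7th percentile for Flot1, the 95.6th for Cd9 and the 90.9th for Sdcbp. In 2% HS the change of Cd9 stood at the 1.7th percentile and that of Cd82 at the 92.5th.

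The low-serum media without exosomes were also compared with 10% FBS, and no member passed the test. The changes of Cd81 were 0.68 in 2% HS and 0.53 in 0.2% FBS, and those of Cd151 were 0.62 and 0.59. The changes of Sdcbp were -0.40 and -0.35, those of Cd9 -0.19 and -0.53 and those of Flot1 -0.14 and -0.32. With the mean of both media against 10% FBS, limma gave 0.60 for Cd151 (SE 0.18, adjusted p = 0.112) and 0.60 for Cd81 (SE 0.27, adjusted p = 0.24). It called 0 of 9 members, beside 1.99% of the 10731 genes, and 2350 genes, with Cd151 as the 1 member among them, had an unadjusted p under 0.05. The median over the 10 members was 0.05 in 2% HS and -0.05 in 0.2% FBS, beside -0.08 and -0.09 for all genes. The 10% FBS library is single, so its own deviation enters both comparisons.

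Of the 9 tested members, those lower in 2% HS than in 10% FBS (Sdcbp, Cd9, Flot1) were those highest with exosomes in 0.2% FBS, and the 2 furthest above 10% FBS in 2% HS (Cd81, Cd151) were the lowest with exosomes. These changes share no library. Over the 100 members and pathway genes that were tested, Pearson r between both changes was -0.681 and Spearman rho -0.599, across genes, which are not independent replicates. Over all 10731 genes r was -0.649, so the relation is not particular to the exosome genes.

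**Figure D3:**
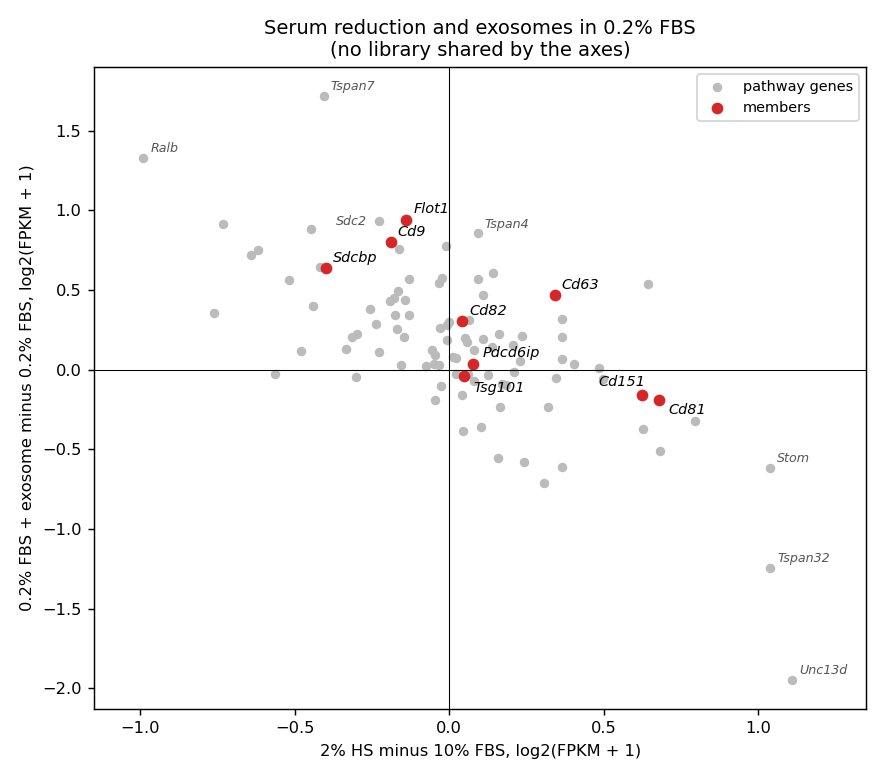
Change with exosomes in 0.2% FBS (mean of both libraries, vertical) against the change from 10% FBS to 2% HS (horizontal), both as differences of log2(FPKM + 1), for 100 members (red) and pathway genes (grey) that were tested. The points fall from upper left (Ralb, Tspan7) to lower right (Unc13d, Tspan32), with an r of -0.681 across genes.

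Of the other tetraspanins, 26 were listed in the table and 15 tested. limma called 2 higher with exosomes in 0.2% FBS (Tspan7 and Tspan4) and 2 lower (Tspan32 and Tspan12), which is 4 of 15 beside 12.5% of all genes tested. The median change of the 15 was -0.19, or -0.33 after scaling. Tspan7, a tetraspanin best known from neurons, had 3.20 FPKM in 0.2% FBS against 10.1 and 16.3 in the exosome replicates, a change of 1.72 (adjusted p = 0.0087). Growing cells had 7.60 FPKM of Tspan7, and the values were 5.49 and 5.48 in 2% HS without and with exosomes, so the pair in 2% HS lay at one level. Tspan4, which marks migrasomes, had 35.3 FPKM in 0.2% FBS against 65.6 and 64.2 in the exosome replicates (change 0.86, adjusted p = 0.0195). In the other direction, Tspan32, known from blood cells, had 29.6 FPKM in 0.2% FBS against 12.2 and 11.6 in the exosome replicates, beside 11.7 in 10% FBS. Its change with exosomes was -1.24 (adjusted p = 0.00735), and it was called higher in the low-serum media than in 10% FBS (1.16, adjusted p = 0.0284, and 0.0641 without the trend). Tspan12, which takes part in Norrin signalling, changed by -0.61 (adjusted p = 0.0434, and 0.0671 without the trend). The most abundant of the list, Tspan3 and Tspan31, had changes of -0.32 (adjusted p = 0.303) and 0.21 (adjusted p = 0.48).

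Of the partners of tetraspanins, 0 of 7 tested were called with exosomes in 0.2% FBS, beside 12.5% of all genes. The median change of these 7 was 0.45, or 0.31 after scaling. Itgb1, the beta-1 integrin chain, had 231 FPKM in 0.2% FBS against 255 and 226 in the exosome replicates. Itga7, the laminin-binding alpha chain of muscle, had 351 FPKM in 0.2% FBS against 289 and 209 in the exosome replicates (change -0.51, adjusted p = 0.275). These were the most abundant genes of the list.

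The syndecan-syntenin list holds the cargo route to which Sdcbp belongs. Of 9 genes listed, 8 were tested. All 8 were higher in both exosome libraries of 0.2% FBS, beside 55.2% of all genes tested, and 7 of 8 after scaling, beside 41.8%. The list was chosen with earlier results of these data known, so these counts are a description only. The median of the 8 was 0.55, or 0.41 after scaling, and in 2% HS it was -0.08. limma called 1 of 8, beside 12.5% of all genes. This was Sdc2, the main fibroblast-type syndecan, which had 199 FPKM in 0.2% FBS against 365 and 396 in the exosome replicates (change 0.93, adjusted p = 0.0463, and 0.0603 after scaling). Sdc4, another abundant syndecan, had 102 FPKM in 0.2% FBS against 111 and 104 in the exosome replicates, a change of 0.07 (adjusted p = 0.849). Sdc2 and Sdc4 were the most abundant genes of the list.

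Of the other genes of the ESCRT machinery, 28 were tested, and limma called 1 higher and 0 lower with exosomes in 0.2% FBS, beside 12.5% of all genes. The median change was 0.06 and turned to -0.08 after scaling. In both exosome libraries, 12 had higher and 6 lower values than the control, which is 42.9% and 21.4% beside 55.2% and 27.5% of all genes tested. After scaling 7 had higher and 14 lower ones, or 25% and 50%, beside 41.8% and 40.8%. The changes ran from -0.38 for Vps37a to 0.76 for Mvb12a. The called gene, Mvb12a, an ESCRT-I subunit, had 15.1 FPKM in 0.2% FBS against 24.7 and 27.99 in the exosome replicates (change 0.76, adjusted p = 0.0252). Vps28, an ESCRT-I subunit and the most abundant of the list, had a change of 0.04 (adjusted p = 0.92), and Chmp4b, an ESCRT-III subunit, 0.19 (adjusted p = 0.546). Of the ceramide and raft genes, 0 of 5 tested were called with exosomes, beside 12.5% of all genes, and the median was 0.30, or 0.16 after scaling. Stom, a raft protein related to the flotillins, was called higher in the low-serum media (0.94, adjusted p = 0.0434, and 0.0709 without the trend) and had a change of -0.61 with exosomes in 0.2% FBS (adjusted p = 0.0567).

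Of the Rab and release genes, 24 were found in the table, 18 were tested and 4 were called with exosomes in 0.2% FBS (3 higher and 1 lower), beside 12.5% of all genes. The median change of the 18 was 0.17, or 0.03 after scaling. Unc13d (Munc13-4), a RAB27 effector that primes granules and endosomes for fusion, had 13.9 FPKM in 0.2% FBS against 3.78 and 2.12 in the exosome replicates, beside 4.13 in 10% FBS. Its change of -1.95 (adjusted p = 0.00735) was the largest in size of the lists, and it was called higher in the low-serum media than in 10% FBS (1.32, adjusted p = 0.0426, with 0.0517 after scaling and 0.0757 without the trend). Ralb, a small GTPase of the exocyst route, went the other way. It was at 61.9 FPKM in 10% FBS, 30.7 in 2% HS, 28.5 in 2% HS + exosome, 21.2 in 0.2% FBS, and 43.7 and 68.8 in the exosome replicates, a change of 1.33 (adjusted p = 0.0186). The other called genes, Rab2b (0.72, adjusted p = 0.0373) and Tbc1d10a (0.58, adjusted p = 0.0498), lost the call after scaling (adjusted p = 0.0619 and 0.104). Rab7, which directs late endosome traffic and is the most abundant of the list, had 132 FPKM in 0.2% FBS against 154 and 167 in the exosome replicates (change 0.28, adjusted p = 0.408), and Stx4a, a plasma membrane syntaxin, had a change of 0.28 (adjusted p = 0.307).

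Proteins often carried by vesicles formed the last list. Of 10 tested, 1 was called higher, beside 12.5% of all genes. It was the milk-fat-globule protein gene Mfge8, at 51.2 FPKM in 0.2% FBS and at 85.6 and 91.4 in the exosome replicates (change 0.78, adjusted p = 0.0287). The median of the 10 was 0.39 in 0.2% FBS, or 0.24 after scaling, and -0.24 in 2% HS. The abundant chaperone genes Hspa8 and Hsp90ab1 had changes of 0.17 (adjusted p = 0.825) and 0.07 (adjusted p = 0.927). None of the 7 pathway lists held a gene called for a difference between the media, beside 1.16% of all genes tested. None held one called for a common exosome effect, beside 0%.

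**Figure D4:**
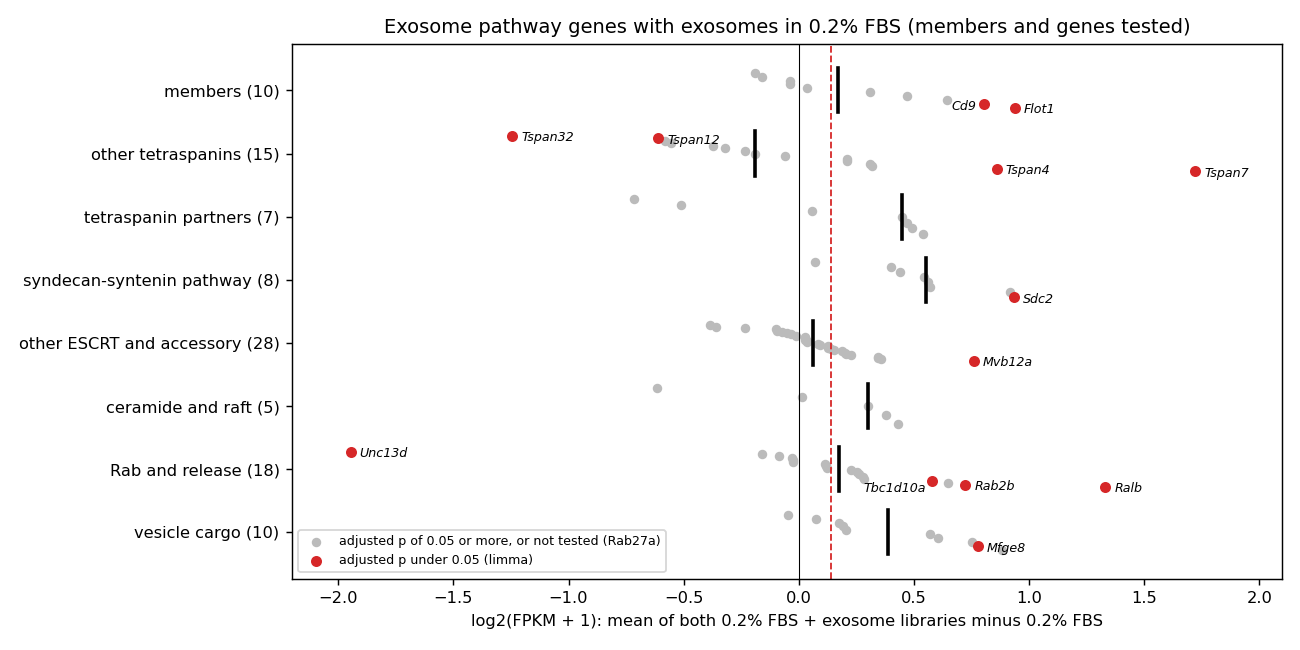
Change with exosomes in 0.2% FBS, as the difference of log2(FPKM + 1), for the 10 members and for the tested genes of 7 pathway lists (number of genes in brackets, 1 point per gene, red for an adjusted p under 0.05 in limma, black bars for the median of each list, dashed line for the median gene at 0.14). The syndecan-syntenin genes all lie above 0, and the genes called lower are Tspan32, Tspan12 and Unc13d.

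The genes whose levels most resembled those of Flot1, the member with the widest range, were Rce1, Apoa1bp, Plod3, R3hdm4 and Stub1. Their Pearson r with Flot1 over the 6 libraries lay between 0.994 and 0.995, among 5876 genes that averaged 10 FPKM or more. Plod3 had 25.8 FPKM in 0.2% FBS against 42.3 and 46.0 in the exosome replicates, and Stub1 at 50.5, 66.3 and 77.8. With 6 libraries, of which 2 are of one condition, such likeness is a description only.

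Because the exosome genes are also used by blood cells, markers of such cells were read in the same libraries. The 6 platelet markers summed to 5.05 to 7.92 FPKM in the 4 libraries other than 0.2% FBS + exosome, and to 11.99 and 22.8 in the exosome replicates. Of these 6, 3 were tested and had higher values in both exosome libraries, beside 55.2% of all genes tested, with a median change of 1.11. limma called 1 of the 3, Ppbp (1.52, adjusted p = 0.0293), beside 12.5% of all genes, and Gp6 was at 0 in all libraries. The 5 macrophage markers summed to 1.22 FPKM in 10% FBS, 1.28 in 2% HS, 1.60 in 2% HS + exosome, 1.70 in 0.2% FBS, and 1.99 and 2.35 in the exosome replicates, with the defining gene Adgre1 (listed as Emr1) at 0. Of the 3 red cell markers found, Hbb-b1 and Hbb-b2 were at 0 in all libraries, and Alas2 was at 0.034 to 0.062 FPKM in the 4 libraries other than 0.2% FBS + exosome and at 0.065 and 0.133 in the exosome replicates. The platelet and macrophage sums were highest in the same exosome replicates as Flot1 and Cd9, and their part in those changes was not tested. In the muscle list, 7 of 8 markers had lower values in both exosome libraries, beside 27.5% of all genes tested, with a median change of -1.02. limma called 2 of the 8, Tnnt1 lower and Myf5 higher, beside 12.5% of all genes.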

How the data were processed

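mRNA of C2C12 cells was sequenced in 6 stranded libraries (75 bp, single-end). Adaptors were trimmed with cutadapt 1.9.1 and reads mapped to mm10 with TopHat2 2.1.0 (submitters' processing notes), and the authors deposited FPKM per gene and library from Cufflinks, with annotation and strand setting not given in the sources used here.

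The labels gave the groups. Values were compared as log2(FPKM + 1), with the study's threshold of 1 or -1 over 20950 entries. limma 3.58.1 (R 4.3.3) with a mean-variance trend was fitted to the 10731 genes averaging 1 FPKM or more. One mean per condition leaves 1 residual degree of freedom, and the common exosome effect was fitted to 5 libraries with medium as covariate. A Benjamini-Hochberg adjusted p under 0.05 was called. The fits were also run on simulated data, in which every library was given the spread seen between the exosome replicates. The simulation therefore cannot test whether the single libraries vary as these do.

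Depth was estimated from low FPKM values of 2442 genes with 1 annotated transcript, assuming fragments of 200 bases. The depth chosen was the one at which the most values lay within 0.1 of a whole read. That share was 76.6% to 80.1% of 311 to 368 values per library. An even spread gives 20% only at a depth fixed beforehand, so 20% is not the chance level of the chosen share. Positions and shared 75-base stretches come from GENCODE vM21 (mm10).

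Named are the 10 members and, of each pathway list, up to 5 genes with the largest change beyond 1 or -1 and the 2 with the highest mean FPKM, and the 5 genes most like the member with the widest range. Tspan4, Tspan12, Mvb12a, Vps37a, Rab2b, Tbc1d10a, Mfge8 and the markers Myod1, Ppbp, Alas2, Tnnt1 and Myf5 are outside this rule and were named after their values were seen. The members and lists were chosen with earlier results of these data known. Alternatives were a pseudocount of 0.1, values below 1 FPKM raised to 1, scaling to the same 75th percentile, no filter, no trend, and leaving out each exosome replicate. Vamp7, Hba-a1 and Hba-a2 were not matched in the table.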

Additional observations from a re-analysis of the deposited data

How the results depend on the processing

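Of 380 values under the alternatives, 42 moved by more than the replicate spread (counts by over 1.5 times), 3 lost the limma threshold and 2 estimates of limma reversed; the other 333 include changes near 0 whose sign turned. Scaling gave list medians of 0.051 and 0.0048 with exosomes in 0.2% FBS and 2% HS, and of 0.107 and -0.0034 for 2% HS and 0.2% FBS against 10% FBS; the last was -0.11 with a pseudocount of 0.1 and -0.015 with values raised to 1 FPKM. Leaving out each exosome replicate in turn gave 0 to 1 members beyond the threshold, the 1 (Flot1) without replicate 1. limma in 0.2% FBS called 1 member after scaling, beside 1164 of the 10731 genes tested. Without the filter it called 0 members, and all 3 fits called 0 genes in place of 1344, 125 and 214. Without the trend the difference between media had 45 genes and the low-serum comparison 2. Scaling reversed the limma estimates of Pdcd6ip in 0.2% FBS (-0.11) and of the difference between media for Cd82 (-0.12). It also turned the sign of changes near 0 of Cd81, Sdcbp and Tsg101 in 2% HS, of Cd63 in 0.2% FBS against 10% FBS and of the list median in 2% HS. The cause of these shifts was not tested. Entries beyond the threshold with exosomes in 0.2% FBS numbered 271, but 653 with a pseudocount of 0.1, 415 with values raised to 1 FPKM and 628 without replicate 1. In 2% HS they numbered 72, 347 and 124, in 2% HS against 10% FBS 254 and, with the pseudocount of 0.1, 733, and in 0.2% FBS against 10% FBS 272, 830 and 441. No paired analysis was possible because the groups compared within a medium share fewer than 2 replicate numbers. Over both media, the numbers in the titles coincide with the medium only without exosome replicate 2, whose number has no control. The common exosome effect with medium as covariate, without exosome replicate 2, called 0 genes. Depth limits Rab27a among the members, and every comparison rests on at least 1 single library, the 0.2% FBS control included.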
